A study of Drosophila melanogaster with 12 samples.

Results

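Hemocytes of wasp inf. 48 hr *Drosophila melanogaster* larvae were divided by the *atilla* transcripts that each cell held. *atilla* encodes a surface protein by which lamellocytes are recognised. The *atilla*-high class held every cell with 5 or more unique molecular identifiers (UMIs, each standing for 1 captured transcript) of *atilla*, and the *atilla*-negative class every cell with 0. The cells were selected on these counts alone, among those with 500 or more UMIs, 200 or more genes and a mitochondrial share of 30% or less. There were 4807 *atilla*-high and 1195 *atilla*-negative cells. These 6002 cells stand among 7035 kept cells of this condition and 26493 in the series, that is the kept 48 hr cells and the merged table that the authors deposited for the other conditions. The 1033 cells with 1 to 4 *atilla* UMIs belong to neither class. Since *atilla* chose the cells, its own level is a description and it was left out of every test.

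Both classes came from the same larvae. These were OreR, a wild type strain with no transgene, infested with the parasitoid wasp *Leptopilina boulardi* at 72 hr after egg laying by the study's methods and bled 48 hr later, after vortexing to bring sessile hemocytes into circulation and without a density gradient. These times add up to 120 hr, whereas the labels give an age of 128 hr, and the conflict was not resolved. The 3 replicates were Drop-seq libraries from pooled larvae, in which single cells and barcoded beads share a droplet. Each was split into its 2 classes, and the classes were compared within replicates. All cells had thus seen the infestation, and no uninfested sample of this age was analysed here. Whether the replicates were separate infestations is not given in the sources used here, so the p-values measure the spread between these 3 libraries. The same rule was applied to the 3 libraries of wasp inf. 24 hr OreR larvae, aged 96 hr by the labels, which the authors also made with Drop-seq.

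In the fly larva most hemocytes are plasmatocytes, which engulf microbes and dead cells and secrete much of the basement membrane. Crystal cells are a smaller population and carry the prophenoloxidases of the melanization reaction. Lamellocytes are large flat cells that are rare in healthy larvae. After a wasp lays its egg they form in numbers, from plasmatocytes in circulation and from progenitors in the lymph gland, and they wrap and melanize the egg as a capsule.

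The *atilla*-high class took up 60.5%, 70.6% and 71.5% of the kept cells of replicates 1, 2 and 3 (1130, 1451 and 2226 cells), and the *atilla*-negative class 24.7%, 17.4% and 12.05% (462, 358 and 375 cells). The median *atilla*-high cell held 46, 59 and 57 *atilla* UMIs, and the highest held 643. *atilla* (chromosome arm 2L, 12175451 to 12177886, minus strand, Release 6 assembly) amounted to 8335, 9789 and 8768 CPM in *atilla*-high cells and 0 in *atilla*-negative cells. CPM (counts per 1000000) are UMIs of a gene relative to all UMIs summed over a class, scaled by TMM factors, which correct for differences in composition. Few *atilla*-high cells sat exactly at 5 UMIs (23, 20 and 35 in the 3 replicates), and few of the left out cells at 4 (38, 22 and 49). Cells with 5 and cells with 4 *atilla* UMIs had mean levels of 441 and 569 CPM for *Hml*, 690.2 and 599.8 CPM for *alphaTub85E*, 1515 and 1090.3 CPM for *betaTub60D*, and 218 and 165 CPM for *CG1208*. Replicate 3 decided the *Hml* means, at 160, 175 and 986 CPM in cells with 5 and 227, 254 and 1224 CPM in cells with 4 *atilla* UMIs, and without it they were 168 and 241 CPM, and those of *CG1208* 215 and 109 CPM.

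*atilla*-high cells were the deeper ones. Their median UMIs per cell were 9123.5, 8726 and 8721, against 3752.5, 3927 and 3912 in *atilla*-negative cells, a ratio of means of 2.29. The library medians of the classes did not overlap, although single cells did. An exact sign-flip permutation test over 3 pairs cannot go below the 0.25 it gave (two-sided). Median genes per cell were 2062.5, 1970 and 2002.5 against 1311, 1373.5 and 1418, and median mitochondrial shares 2.42%, 2.34% and 3.36% against 2.62%, 2.51% and 4.07%. Cells over 20000 UMIs numbered 412 in the *atilla*-high and 13 in the *atilla*-negative class. A limit in whole UMIs takes deep cells more readily, so the comparison was repeated in cells of 3000 to 10000 UMIs (2070 *atilla*-high and 694 *atilla*-negative cells). Summed over cells, the classes held 11894157 to 22299473 and 1801885 to 2406652 UMIs per replicate. Of the 7035 kept cells, 2 had a barcode that occurred in another replicate.

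The markers of each cell type followed the division. The summed level of the 10 lamellocyte markers other than *atilla* was 31256 to 35383 CPM in *atilla*-high cells, against 859 to 1263 CPM in *atilla*-negative cells. The 8 plasmatocyte markers summed to 1185 to 1910.2 CPM in *atilla*-high cells, against 4572 to 6696 CPM in *atilla*-negative cells. The *atilla*-negative class was mixed. It held the 4 crystal cell markers at 1216 to 1368 CPM, against 19.4 to 60.5 CPM in *atilla*-high cells, and 27 of its cells, against 9 *atilla*-high cells, had 5 or more UMIs of *PPO1* and *PPO2*. Cells with 1 to 4 *atilla* UMIs held these markers as well, at 433 to 2796 CPM, and 26 of those 1033 cells had 5 or more such UMIs. Both classes carried the pan-hemocyte markers *He* and *srp*, which summed to 3292 to 3565 CPM in *atilla*-high and 1704 to 1879 CPM in *atilla*-negative cells. The 7 fat body markers summed to 21.4 to 54.2 CPM against 58.3 to 240 CPM, the 8 muscle markers to 26.9 to 86.2 CPM against 48.6 to 153 CPM, and the 6 salivary gland markers to at most 0.496 CPM against at most 0.9701 CPM, with *Sgs1* and *Sgs4* at 0 in both. Of the tested markers of fat body 5 of 5, and of muscle 5 of 8, were lower in *atilla*-high cells, against 29.6% of all genes tested. Without TMM scaling all 8 muscle markers were lower. The part of fat body and muscle RNA in the results was not tested. Genes of the gut and the male germline stood highest in replicate 3 of the *atilla*-negative class. The 16 gut proteases, a list made after seeing these data, summed to 14.4, 15.5 and 3.52 CPM in *atilla*-high cells of replicates 1, 2 and 3, against 230, 16.5 and 3068 CPM in *atilla*-negative cells, and the 13 male germline genes to 11.4, 11.2 and 12.1 CPM against 93.2, 174 and 471 CPM. Few cells carried them, as 4 *atilla*-high and 5 *atilla*-negative cells had 5 or more UMIs of gut proteases, and 6 and 8 cells of male germline genes.

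At 24 hr the authors' deposited clusters of the same cells could be set beside the rule. Of 510 *atilla*-high cells at 24 hr, 55.1% lay in lamellocyte cluster LM1, 24.3% in LM2 and 20.0% (102 cells) in plasmatocyte clusters, with 0 in the crystal cell clusters. Replicate 3 held 354 of these cells, and in the 156 cells of replicates 1 and 2 the shares were 78.8% in LM1, 12.8% in LM2 and 7.05% in plasmatocyte clusters. Nearly every LM2 cell was *atilla*-high (124 of 125). Of LM1 cells 281 of 735 were *atilla*-high and 43.9% had no *atilla* UMI, so that the *atilla*-negative class at 24 hr held 323 LM1 cells among 5225. No deposited clusters were used at 48 hr.

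Most genes differed between the classes. Of 7546 genes tested, 4614 (61.1%) passed the adjusted p of 0.05, of which 2379 (31.5%) were higher and 2235 (29.6%) lower in *atilla*-high cells. Any count in a gene list below has to be read against these shares. The median log2 fold change of all genes was 0.01, where 1 unit is a factor of 2 and a positive value means higher in *atilla*-high cells. The log2 fold change exceeded 4 for 139 of the higher genes and fell under -4 for 305 of the lower ones. Many of the 305 rested on few cells. Without 10 *atilla*-high and 13 *atilla*-negative cells with transcripts of gut or germline, as described below, 152 genes exceeded 4 and 63 fell under -4, of 7218 tested. Libraries of the classes did not overlap for 62.9% of tested genes. The log2 ratios of the 3 replicates correlated across genes with r = 0.93, 0.89 and 0.90, a description only, because genes are not independent. The split between higher and lower depended on the scaling. Without TMM factors the median moved to -0.43 and the calls to 1378 higher and 3896 lower, 26.1% higher against 51.6% with TMM, so that changes are relative to that shift.

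**Figure D1:**
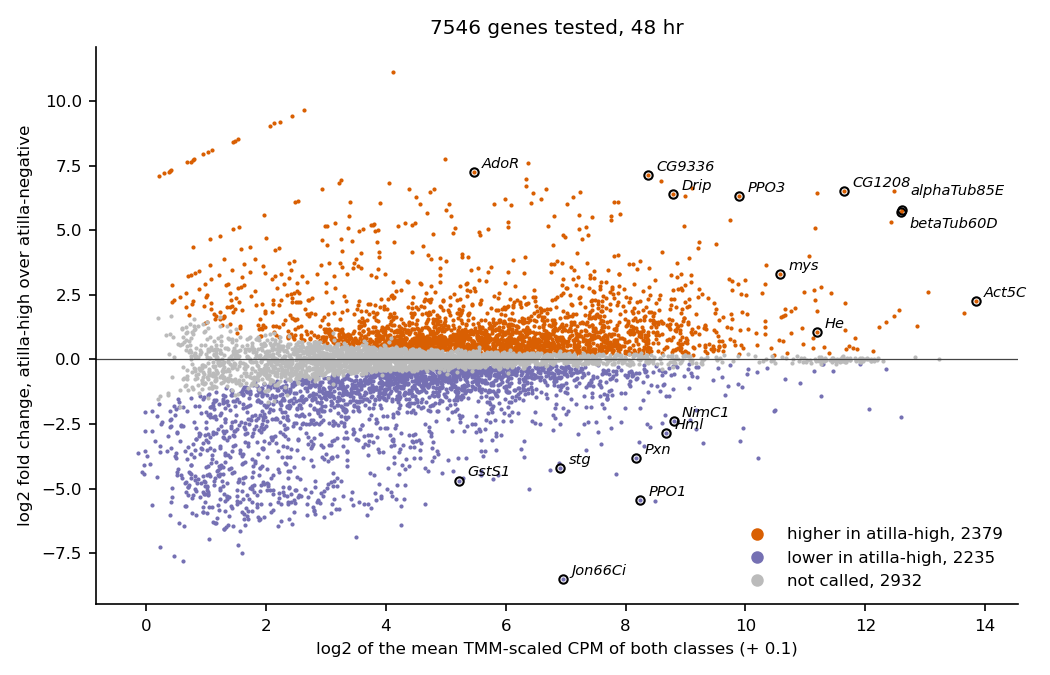
Log2 fold change of *atilla*-high over *atilla*-negative cells at 48 hr (vertical axis) against the log2 mean TMM-scaled CPM of both classes plus 0.1 (horizontal axis), 1 point per tested gene. Orange points are the 2379 genes called higher, purple points the 2235 called lower, and grey points were not called, and *alphaTub85E* and *betaTub60D* combine high levels with values of 5.79 and 5.71.

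All 10 lamellocyte markers rose in *atilla*-high cells, against 31.5% of all genes (median log2 fold change 5.75). Some of them, such as *Treh*, *Tret1-1* and *Drip*, were named by the study from libraries that include these. The count is therefore no independent evidence, here or in the comparisons below. A pair of tubulins are described first. *alphaTub85E* (3R, 9731221 to 9733250, minus strand), an alpha tubulin, was at 11551, 13033 and 12248 CPM in *atilla*-high cells of replicates 1, 2 and 3, against 158, 246 and 279 CPM in *atilla*-negative cells, a log2 fold change of 5.79 ± 0.13 (SE) with an adjusted p of 8.99e-09. *betaTub60D* (2R, 24305881 to 24313099, plus strand), a beta tubulin, reached 11117, 13022 and 12402 CPM against 196, 251 and 254 CPM (5.71 ± 0.069, adjusted p = 4.7e-10). For both tubulins the lowest *atilla*-high replicate lay far above the highest *atilla*-negative one, and the 3 replicates of a class were close to each other. *PPO3*, the prophenoloxidase of lamellocytes, was at 1832, 1951 and 1836 CPM in *atilla*-high and 18.7, 22.3 and 29.4 CPM in *atilla*-negative cells (6.33 ± 0.13, adjusted p = 4.1e-09). It was detected in *atilla*-negative cells of every replicate, at a small part of the other class.

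Integrin subunits were among the markers. *mys*, the main beta integrin of the fly, was at 2731, 2642 and 2933 CPM in *atilla*-high cells, against 250.4, 307 and 296 CPM in *atilla*-negative cells (3.29 ± 0.082, adjusted p = 1.05e-08). *ItgalphaPS4*, an alpha subunit, was at 867, 916 and 1241 CPM against 5.396, 7.76 and 27.2 CPM (6.32 ± 0.25, adjusted p = 9.22e-08), and replicate 3 was the highest in both classes. *cher*, the filamin that links actin filaments, had 844, 729.6 and 1395 CPM against 83.8, 71.3 and 153 CPM (3.29 ± 0.08, adjusted p = 9.93e-09). The kinase gene *msn*, which acts upstream of Jun kinase, changed least among the markers, with 276, 266 and 361 CPM in *atilla*-high and 83.8, 67.4 and 97.3 CPM in *atilla*-negative cells (1.86 ± 0.089, adjusted p = 2.63e-07). None of these genes overlapped between the classes.

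**Figure D2:**
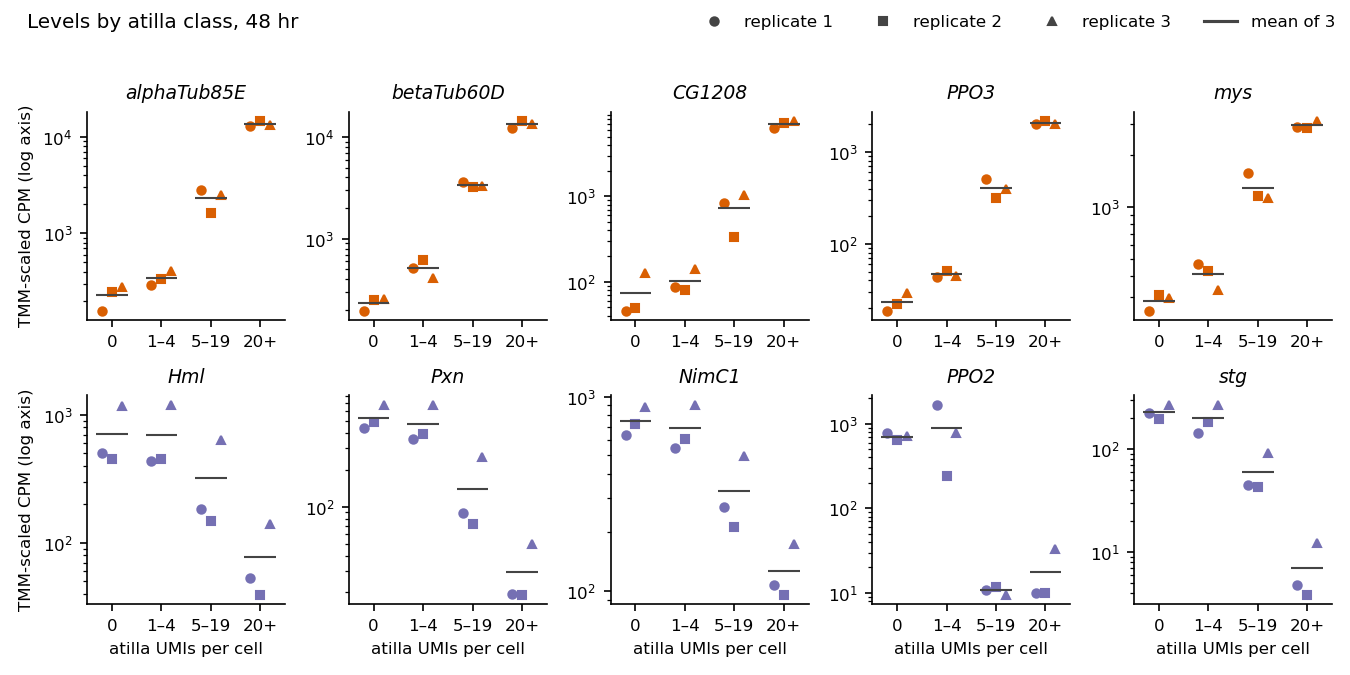
Level (TMM-scaled CPM, log axis) of 10 genes in cells with 0, 1 to 4, 5 to 19 and 20 or more *atilla* UMIs at 48 hr, with 1 symbol per replicate and a line at the mean of 3. The 5 genes of the upper panels stand lowest in the class with 0 UMIs and highest in that with 20 or more, while *Hml*, *Pxn*, *NimC1* and *stg* stay close between 0 and 1 to 4 UMIs and are lower above.

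Genes that move and split sugar were higher in *atilla*-high cells. All 5 tested genes of trehalose and sugar transport rose (median 6.01). Among them *Treh*, *Tret1-1*, *CG4607* and *CG1208* were named by the study from libraries that include these. This count and median are therefore no independent evidence either. Trehalose is the main blood sugar of insects. *Tret1-1*, its transporter, was at 417, 349 and 553 CPM in *atilla*-high and 2.52, 5.82 and 11.8 CPM in *atilla*-negative cells (6.10 ± 0.22, adjusted p = 5.13e-08), and *Treh*, the trehalase that cleaves it, at 852, 797 and 1354 CPM against 54.3, 52.4 and 93.3 CPM (3.92 ± 0.081, adjusted p = 4.73e-09). Of the sugar transporter family, *CG1208* (3R, 5831639 to 5838782, plus strand) was at 5679.6, 6434 and 6985 CPM against 45.7, 49.5 and 128 CPM (6.52 ± 0.24, adjusted p = 5.67e-08). Its *atilla*-negative level in replicate 3 was above that in replicates 1 and 2, and still far under any *atilla*-high value. *CG4607* of the same family had 325, 305 and 142 CPM against 3.597, 2.91 and 5.26 CPM (6.01 ± 0.24), with replicate 3 the lowest *atilla*-high library. *sut1*, another sugar transporter, had a smaller change (1.04 ± 0.21).

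Of 11 glycolytic genes 9 rose and 1 fell (median 1.07). *Gapdh2*, a glyceraldehyde phosphate dehydrogenase, was at 2221, 2505 and 1647 CPM in *atilla*-high cells, against 361, 359 and 327 CPM in *atilla*-negative cells (2.59 ± 0.094, adjusted p = 5.68e-08). *Tpi*, triose phosphate isomerase, followed with 502, 541 and 456 against 57.2, 68.4 and 75.3 CPM (2.90 ± 0.11), and *ImpL3*, lactate dehydrogenase, had the largest log2 fold change of the list, with 92.4, 98.2 and 27.3 against 1.799, 4.85 and 6.13 CPM (4.09 ± 0.38, adjusted p = 1.9e-05). *Hex-A*, a hexokinase, fell (-0.77 ± 0.09), and *Pfk*, phosphofructokinase, gave 0.48 ± 0.21 (adjusted p = 0.0815). Of 37 nuclear genes of oxidative phosphorylation 7 rose and 0 fell, and of 15 mitochondrially encoded genes 8 rose and 0 fell (median 0.29). These small shifts turned round without TMM scaling, to 31 and 5 lower genes. *Drip*, an aquaporin, rose among the water channels with 768, 803 and 1060.1 CPM in *atilla*-high and 6.12, 4.85 and 21.5 CPM in *atilla*-negative cells (6.40 ± 0.24, adjusted p = 6.42e-08), while *CG4019* and *CG5398* of the same family fell (-2.94 ± 0.15 and -5.66 ± 0.73) and *CG7777* rose (1.72 ± 0.089). Subunits of the vacuolar proton pump, which acidifies endosomes and lysosomes, rose in 15 of 17 cases by small amounts (median 0.80).

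Most tested genes of the cytoskeleton were higher in *atilla*-high cells. All 16 tested genes of tubulin folding, the CCT chaperonin and prefoldin subunits and the tubulin cofactors, rose (median 1.38), for instance *Cct5* at 875, 941 and 912 CPM in *atilla*-high and 389.6, 408 and 328 CPM in *atilla*-negative cells (1.28 ± 0.081, adjusted p = 1.53e-06). Of 8 tubulins 6 rose and 2 fell. Beside the pair above, *alphaTub84B* rose (1.90 ± 0.052), and *alphaTub84D* and the testis tubulin *betaTub85D* fell (-0.46 ± 0.089 and -2.70 ± 0.54). Of the 129 *betaTub85D* UMIs in *atilla*-negative cells, 89.9% lay in 10 cells. Of 19 motors and microtubule-binding proteins 15 rose and 1, *futsch*, fell. *shot*, the spectraplakin that ties microtubules to actin, was at 1164, 1039.9 and 1982 CPM against 50.7, 46.1 and 97.3 CPM (4.45 ± 0.083, adjusted p = 4.08e-09), and *Eb1*, which tracks growing microtubule ends, at 1654, 1661 and 1683 against 222, 223 and 212 CPM (2.93 ± 0.069).

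Most genes of actin assembly were higher in *atilla*-high cells. Of 26 genes tested 24 rose and 2 fell (median 1.34). *tsr*, the cofilin that severs filaments, was at 10306, 10763 and 10752 CPM in *atilla*-high cells, against 4709, 4561 and 3840.2 CPM in *atilla*-negative cells (1.28 ± 0.07), and *chic*, the profilin, at 8873, 9179 and 8069 against 2912, 2958 and 2324 CPM (1.68 ± 0.057). *twf*, twinfilin, had the largest log2 fold change of the group (3.18 ± 0.086, adjusted p = 1.64e-08). The 2 that fell were *ena* (-1.01 ± 0.13) and the formin *dia* (-0.94 ± 0.19). *Act5C* and *Act42A*, the cytoplasmic actins, were at 23344, 24598 and 24819 against 5058, 5624 and 4666 CPM (2.25 ± 0.061) and at 18832, 19825 and 21084 against 5684, 5958 and 5393 CPM (1.81 ± 0.059). Actin coding sequences are nearly identical, and how the authors' counting shared reads between such copies is not given in the sources used here, so the 2 actins are uncertain as single genes. Of 20 genes of myosin and contractility 16 rose and 3 fell, among them *Rac2*, a Rac GTPase (2.53 ± 0.068), which rose, and *zip*, the heavy chain of nonmuscle myosin II (-0.37 ± 0.086), which fell.

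Adhesion and the matrix it binds went opposite ways. Of 22 genes of integrins and their adaptors 18 rose and 2 fell (median 2.40). *Fit1*, a kindlin that activates integrins, was at 1014, 1205 and 1151 CPM in *atilla*-high and 49.6, 64.5 and 54.8 CPM in *atilla*-negative cells (4.32 ± 0.084, adjusted p = 4.1e-09). *rhea*, the fly talin, was at 802, 763 and 1094 against 76.3, 87.8 and 100.3 CPM (3.32 ± 0.092), and alpha subunit *mew* at 396, 421 and 467 against 35.3, 48.5 and 46.9 CPM (3.31 ± 0.10). *Tig*, the matrix protein tiggrin, and *Zasp66* were the members that fell (-2.80 ± 0.16 and -2.25 ± 0.39). Of 12 basement membrane genes 2 rose and 10 fell (median -2.30). *Cg25C* and *vkg* encode the collagen IV chains. *Cg25C* was at 111, 80.7 and 184 CPM in *atilla*-high cells, against 1041, 976 and 1368 CPM in *atilla*-negative cells (-3.23 ± 0.13, adjusted p = 8.41e-08), and *vkg* at 60.05, 39.6 and 81.5 against 542, 469 and 607 CPM (-3.20 ± 0.13, adjusted p = 8.41e-08). *BM-40-SPARC*, a collagen-binding protein, followed (-3.14 ± 0.12), as did the perlecan *trol* (-3.53 ± 0.14) and the laminin chains *LanB1* (-2.46 ± 0.11), *LanB2* (-2.14 ± 0.11) and *LanA* (-2.09 ± 0.11). *wb*, a laminin alpha chain that serves as an integrin ligand, rose (3.01 ± 0.19, adjusted p = 1.64e-06), with 43.5, 52.6 and 61.7 CPM against 3.24, 6.79 and 10.1 CPM. The other rising member was *Plod*, the lysyl hydroxylase of collagen (0.39 ± 0.097).

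Plasmatocyte genes were lower in *atilla*-high cells, and all 8 markers fell (median -3.03). *Hml* (3L, 13846054 to 13860001, plus strand), hemolectin, a clotting factor and the usual plasmatocyte marker, was at 69.7, 51.4 and 193 CPM in *atilla*-high cells of replicates 1, 2 and 3, against 503, 453 and 1176 CPM in *atilla*-negative cells (-2.86 ± 0.11, adjusted p = 6.81e-08). Replicate 3 was the highest in both classes, and no *atilla*-high value reached an *atilla*-negative one. *Pxn*, peroxidasin, was at 28.02, 24.97 and 71.4 against 439, 495 and 672 CPM (-3.81 ± 0.19, adjusted p = 2.94e-07). *NimC1* and *eater* encode phagocytic receptors, with 128, 108 and 208 against 632, 720.3 and 882 CPM for *NimC1* (-2.37 ± 0.12) and 28.6, 24.4 and 61.5 against 297, 315 and 425 CPM for *eater* (-3.26 ± 0.16). *Sr-CI*, a scavenger receptor, and *crq*, the fly CD36 relative, fell only a little (-0.39 ± 0.072 and -0.55 ± 0.14).

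Other plasmatocyte functions were mixed. Of 17 phagocytosis receptors 6 rose and 10 fell. *NimB4* and *NimB1* fell (-2.23 ± 0.15 and -1.87 ± 0.11), whereas *NimB5*, *Sr-CIV* and *pes* rose (1.41 ± 0.076, 2.27 ± 0.088 and 1.32 ± 0.095). The lysosomal list gave 4 higher and 7 lower genes of 13, with *Cp1*, a cathepsin L, higher (1.22 ± 0.061) and *cathD*, cathepsin D, lower (-1.21 ± 0.093). All 4 imaginal disc growth factors tested, chitinase-like secreted proteins, fell (median -1.61). Of the thioester proteins, complement-like factors, *Tep2* (2.68 ± 0.22), *Mcr* (1.65 ± 0.22) and *Tep1* (0.54 ± 0.16) rose and *Tep4* (-0.29 ± 0.083) fell. Of 11 antimicrobial peptide genes 4 rose and 2, *AttA* and *AttB*, fell, which became 3 and 3 without TMM scaling. *Drs*, drosomycin, rose (1.44 ± 0.18), and the other 3 were cecropins, whose near-identical copies make them uncertain.

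The prophenoloxidases parted by class. *PPO3* was higher, as above, while *PPO1* and *PPO2*, the enzymes of crystal cells, were lower. *PPO1* was at 7.71, 8.68 and 28.1 CPM in *atilla*-high cells, against 584, 566 and 623 CPM in *atilla*-negative cells (-5.45 ± 0.31), and *PPO2* at 10.1, 10.0 and 30.9 against 774, 636 and 708 CPM (-5.49 ± 0.31). In the *atilla*-negative class 83.6% of the 5080 *PPO2* UMIs lay in 10 cells. Without the 9 *atilla*-high and 27 *atilla*-negative cells that held 5 or more UMIs of *PPO1* and *PPO2*, *PPO2* gave a log2 fold change of -0.59 with an adjusted p of 0.0552. These cells were chosen by the UMIs of *PPO2* itself, so that a smaller change was built in. All 4 crystal cell markers fell. *peb* was at 0.0976, 0.496 and 0.466 against 7.91, 6.79 and 9.64 CPM (-4.45 ± 0.48), and *lz*, the Runx factor that specifies crystal cells, at 1.56, 1.07 and 1.09 against 2.16, 6.79 and 3.07 CPM (-1.60 ± 0.50, adjusted p = 0.0208), which replicate 2 decided, since without it *lz* gave -0.96 with an adjusted p of 0.266. Of the other genes of melanization, *yellow-f* (2.33 ± 0.14) and *Dhpr* (2.51 ± 0.17) rose, and the serpins *Spn27A*, which restrains the cascade, and *Spn28Dc* fell (-1.98 ± 0.089 and -2.91 ± 0.19), as did the protease *MP1* (-0.67 ± 0.12).

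Cell division genes formed a list of 27 in which 0 rose and 27 fell (median -1.55). *stg* (3R, 29251826 to 29255800, minus strand), the Cdc25 phosphatase that starts mitosis, was at 9.76, 8.18 and 20.2 CPM in *atilla*-high cells, against 223, 194 and 265 CPM in *atilla*-negative cells (-4.20 ± 0.17, adjusted p = 9.22e-08). *CycB*, a mitotic cyclin, was at 2.34, 1.82 and 3.47 against 47.5, 45.1 and 49.9 CPM (-4.20 ± 0.19, adjusted p = 1.86e-07), and *Cks30A*, a subunit of cyclin-dependent kinases that is not in the list, at 1.76, 2.23 and 4.87 against 73.7, 78.1 and 71.8 CPM (-4.60 ± 0.25). The mitotic kinase *polo* (-3.76 ± 0.18) and the cytokinesis kinesin *pav* (-3.67 ± 0.19) also fell. Other members, such as *PCNA* (-0.85 ± 0.087) and *RnrS* (-0.85 ± 0.11), which serve DNA synthesis, had log2 fold changes closer to 0. Ribosomal protein genes were a contrast, as 78 of 83 were not called (median -0.02). Without TMM scaling, 82 of the 83 were called lower.

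Among signaling genes the list of the Jun kinase (JNK) pathway, a stress pathway whose activity is known to make lamellocytes form, gave 11 of 13 genes higher and 0 lower (median 1.24). Its transcription factors *kay*, the fly Fos, and *Jra*, the fly Jun, were at 493, 491 and 554 against 234, 237 and 182 CPM (1.24 ± 0.11) and 472, 536 and 530.0 against 186, 221 and 169.5 CPM (1.42 ± 0.091). Of its known targets, *Mmp1*, a matrix metalloproteinase, was at 495, 542 and 618 against 131, 178 and 166 CPM (1.81 ± 0.089), *puc*, the phosphatase that limits the pathway, gave 0.99 ± 0.078, and *scaf* was at 393, 461 and 415 CPM in *atilla*-high and 6.12, 7.28 and 13.6 CPM in *atilla*-negative cells (5.57 ± 0.18, adjusted p = 3.43e-08). *hep* and *Mmp2* did not pass (0.18 ± 0.098 and 0.23 ± 0.091). JAK/STAT genes split, with *upd3* and *upd2*, the cytokines, and *Ptp61F*, a phosphatase that restrains the pathway, higher (2.05 ± 0.21, 0.66 ± 0.25 and 2.65 ± 0.095) and the receptor *dome*, the related *et* and *Stat92E* lower (-0.80 ± 0.30, -0.54 ± 0.1 and -1.28 ± 0.14).

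Receptor signaling went in both directions. *btl*, the FGF receptor, was at 29.4, 28.4 and 42.5 CPM in *atilla*-high cells, against 0.3597, 1.46 and 2.63 CPM in *atilla*-negative cells (4.55 ± 0.29, adjusted p = 1.54e-06), and its ligand *bnl* gave -0.68 ± 0.80 (adjusted p = 0.492). *Pvr*, the PDGF and VEGF receptor of hemocytes, fell (-2.41 ± 0.13) with its ligand *Pvf1* (-4.12 ± 0.54), whereas *Pvf2* rose (1.17 ± 0.20). *aos*, a secreted inhibitor of EGF signaling, and *pyr*, an FGF ligand, rose (5.05 ± 0.44 and 3.04 ± 0.18). Of 7 Notch pathway genes 1 rose and 5 fell, with the receptor *N* at 16.01, 9.09 and 18.1 against 107, 93.1 and 119 CPM (-2.90 ± 0.14, adjusted p = 2.58e-07). Of 11 hemocyte transcription factors 7 rose and 2 fell. *Mrtf*, which turns actin state into transcription, rose (2.43 ± 0.12), as did *yki*, the effector of the Hippo pathway, (1.91 ± 0.093), and the GATA factor *srp* gave 0.16 ± 0.094 (adjusted p = 0.159), lower without TMM scaling.

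**Figure D3:**
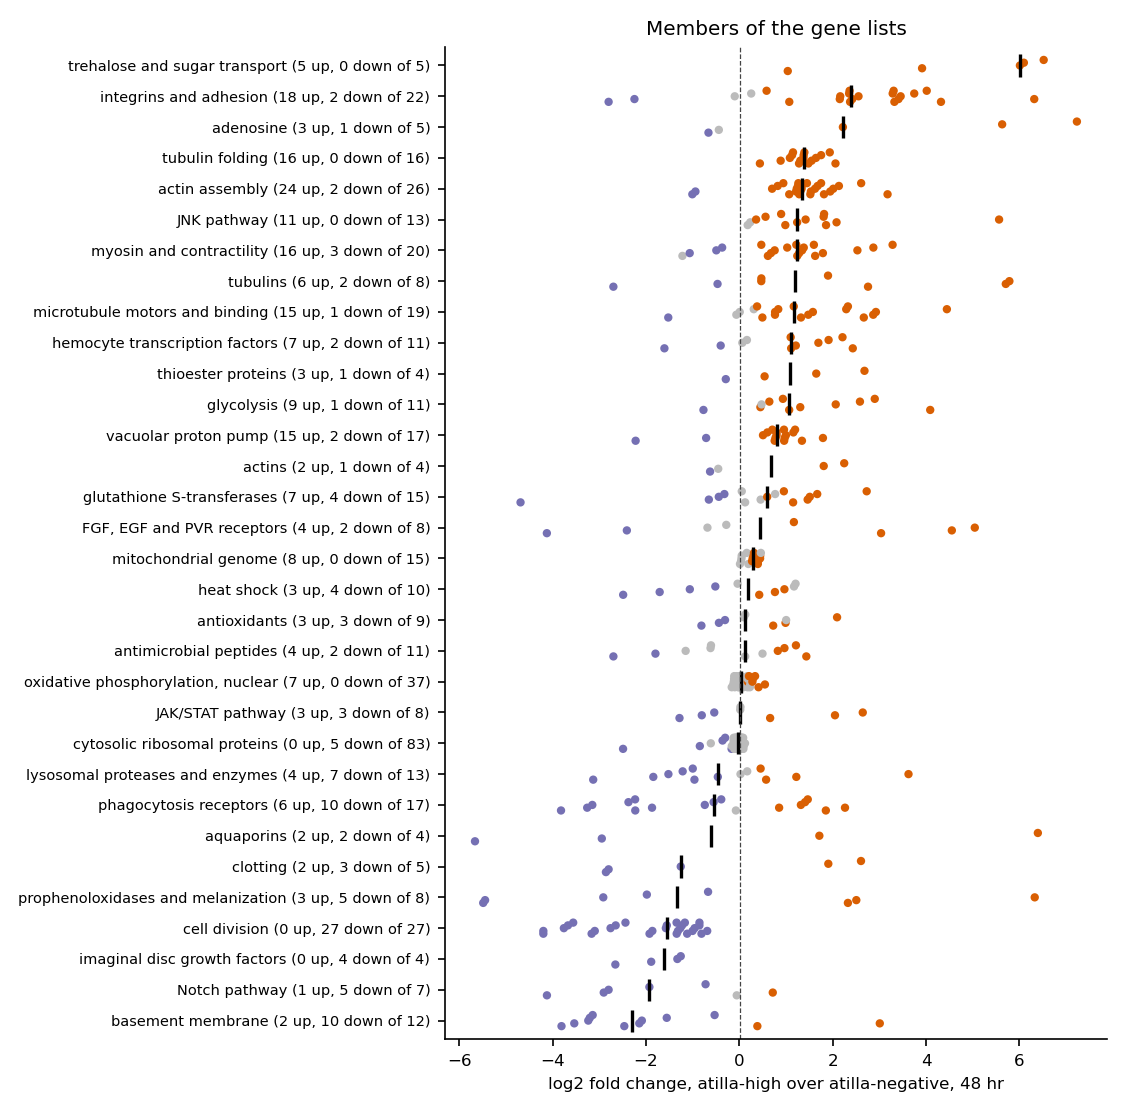
Log2 fold change of *atilla*-high over *atilla*-negative cells at 48 hr (horizontal axis) for the members of each gene list with 4 or more tested genes (1 line per list, ordered by median). Orange members were called higher, purple lower and grey not called, black bars are list medians, and the dashed line is the median of all tested genes (0.01). Trehalose and sugar transport stand at the top, with genes that the study named from libraries including these. Cell division has no member called higher.

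Adenosine genes included some of the largest changes. *AdoR*, the only adenosine receptor of the fly (3R, 30134856 to 30149606, minus strand), was at 82.6, 94.0 and 85.9 CPM in *atilla*-high cells, against 0, 0 and 1.75 CPM in *atilla*-negative cells. That is 3641 UMIs against 4 UMIs, with all 4 in replicate 3. The fitted log2 fold change of 7.23 ± 0.37 (adjusted p = 4.2e-07) thus depends on very few transcripts, and its SE can be too small. *Adk1*, adenosine kinase, which clears adenosine inside cells, was better counted with 463, 493 and 453 against 7.91, 9.701 and 10.95 CPM (5.63 ± 0.12, adjusted p = 6.05e-09). *Adgf-A*, a secreted adenosine deaminase, rose (2.22 ± 0.078) with 905, 909 and 711 against 179, 208 and 156 CPM, and the transporter *Ent2* fell (-0.66 ± 0.11). Exons of *AdoR* overlap an antisense RNA, and whether the counting used strand is not given in the sources used here.

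The 15 largest log2 fold changes among genes that moved the same way in each replicate and reached 50 CPM were held, besides *AdoR* and *CG1208*, by 13 genes. *CG14610* was at 10683, 12019.9 and 11121 CPM in *atilla*-high cells, against 87.05, 136 and 159 CPM in *atilla*-negative cells (6.50 ± 0.15, adjusted p = 7.09e-09), and the non-coding RNA *CR44948* followed with 4449, 4838 and 4535 against 46.4, 44.1 and 68.8 CPM (6.45 ± 0.14). Both were alike in the 3 replicates. *CG5835* (6.65 ± 0.18), *CG11426* (6.59 ± 0.24), *CG31220* (6.47 ± 0.25) and *Tdc1*, a tyrosine decarboxylase (6.58 ± 0.20), made up the rest of those that were not lower in replicate 3 by a wide margin. *CG11426* and *CG31220* had 4 UMIs each over all *atilla*-negative cells.

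A second set was lower in replicate 3 of the *atilla*-high class than in replicates 1 and 2. *CG9336* was at 660.2, 965 and 353 CPM in *atilla*-high cells and 4.32, 1.46 and 7.45 CPM in *atilla*-negative cells (7.12 ± 0.34), and *CR43432*, a non-coding RNA, at 860.4, 973 and 463 against 5.76, 6.79 and 6.57 CPM (6.89 ± 0.17). *AANATL2*, of the arylalkylamine N-acetyltransferase family, was at 371, 384 and 146 against 3.597, 2.91 and 3.505 CPM (6.46 ± 0.20). *Ocho*, a Bearded family gene (194, 203 and 83.5 CPM in *atilla*-high cells), *Or46a*, an odorant receptor gene (199, 199 and 83.9 CPM), *CG12655* (198, 214 and 83.0 CPM) and *CG1213* (80.9, 73.5 and 35.3 CPM) showed the same order, with log2 fold changes of 6.96, 6.69, 7.60 and 7.76. In these 4 genes *atilla*-negative libraries held 0 to 5 UMIs each, so the fitted values rest on few transcripts there. For *CG1213*, with 2400 UMIs against 2, the ratio of unscaled CPM was 151 with an exact 95% interval of 41.7 to 1247, which covers counting error only. The 15 were picked among called genes and reached 50 CPM through the *atilla*-high class, so that their calls are no further support. Exons of *AdoR*, *Or46a*, *CG5835*, *Tdc1*, *CG1208*, *CG14610* and *CG31220* overlap another gene.

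The lowest log2 fold changes needed a look at single cells, because some rested on very few of the 1195 *atilla*-negative cells. *Jon66Ci*, a digestive serine protease of the gut, was at 0.391, 0.992 and 0.777 CPM in *atilla*-high cells, against 34.5, 1.46 and 706 CPM in *atilla*-negative cells (-8.48 ± 0.87), and 80.5% of its 1710 *atilla*-negative UMIs came from 1 cell. For *GstS1*, a glutathione S-transferase, with 2.15, 2.15 and 2.28 against 5.396, 8.73 and 202 CPM (-4.69 ± 0.84), 1 cell of replicate 3 held 76.2% of UMIs. Over all genes, 264 of the 305 with a log2 fold change under -4 had most of their *atilla*-negative UMIs in replicate 3, and 16 of them reached 50 CPM. An alternative chosen after seeing these data left out 13 *atilla*-negative and 10 *atilla*-high cells with 5 or more UMIs of male germline or gut protease genes. The genes called lower then numbered 2139, against 2235 with all cells.

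**Figure D4:**
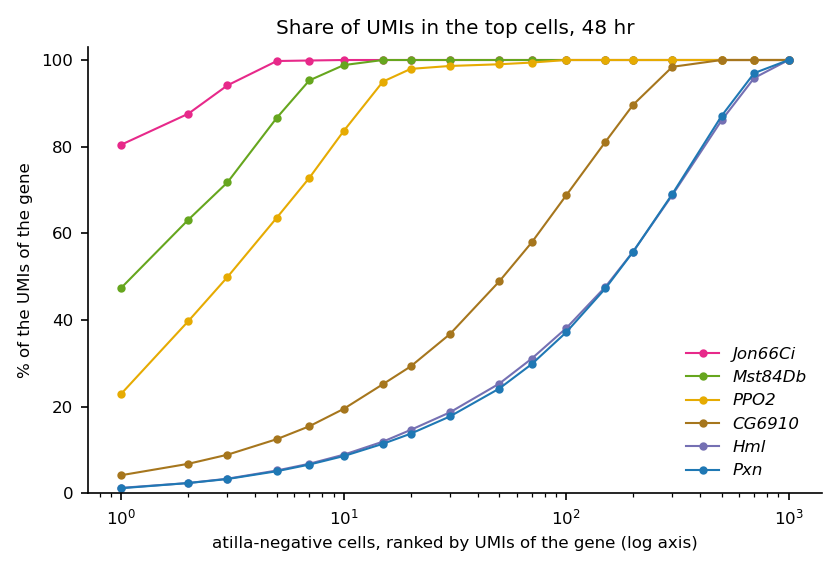
Share of a gene's UMIs in *atilla*-negative cells at 48 hr (vertical axis, %) that lies in the cells with most UMIs of it (horizontal axis, number of cells, log axis), 1 line per gene. *Jon66Ci* reaches 80.5% in 1 cell and *PPO2* 83.6% in 10, against 19.5% of *CG6910* and 8.93% of *Hml* in 10.

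Besides *PPO1*, *PPO2*, *stg* and *Cks30A* above, 9 more genes belonged to the 15 lowest, and their *atilla*-negative UMIs were spread over more cells, with 7.91% to 19.5% in the 10 cells that held most. *CG6910*, the inositol oxygenase, was at 1.17, 3.14 and 12.1 CPM in *atilla*-high cells, against 123, 146 and 219 CPM in *atilla*-negative cells (-4.99 ± 0.32, adjusted p = 1.61e-06). *Inos*, which makes inositol phosphate and was not among the 15, also fell (-3.35 ± 0.16, 46.5, 46.5 and 80.9 against 555, 593 and 574 CPM). *Ance-5*, of the angiotensin-converting enzyme family, was at 13.96, 12.6 and 40.4 against 388, 399 and 524 CPM (-4.42 ± 0.23), and *miple2*, a midkine and pleiotrophin relative, at 1.95, 2.48 and 8.13 against 72.3, 69.8 and 134 CPM (-4.48 ± 0.20). *CG2444* (-4.61 ± 0.30), *CG3961* (-4.47 ± 0.24), *TM4SF*, a tetraspanin (-4.41 ± 0.28), *CG42369* (-4.31 ± 0.30), *CG14527* (-4.30 ± 0.24) and *fat-spondin* (-4.02 ± 0.24) completed the 15. For these, replicate 3 was the highest of the *atilla*-high class, and no library overlapped.

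Cells with 1 to 4 *atilla* UMIs lay near the *atilla*-negative class in the CPM of rising genes, and they are given as a description with no test. Among the 473 genes higher by over 2 on the log2 scale, the median gene had gone 2.69% of the way from *atilla*-negative to *atilla*-high cells. The way was measured in mean CPM, not in log2 units. In CPM the same fold step is a smaller share of the way for a rising gene than for a falling one. Shares of higher and lower genes are therefore not comparable. For the 732 genes lower by over 2 the median share was 39.4%, but many of them rested on a few cells. For the 415 that stayed under -2 without the cells of gut or germline it was 14.96%, and for the 96 of these that reached 50 CPM 10.49%. For 254 higher genes chosen in the same way it was 2.87%. *Hml* had gone 2.37%, *eater* 8.24%, *NimC1* 9.93%, *Pxn* 11.6% and *stg* 13.9% of the way. The mean level of *alphaTub85E* over the classes with 0, 1 to 4, 5 to 19 and 20 or more *atilla* UMIs was 227, 346, 2308 and 13585 CPM. That of *CG1208* was 74.4, 102, 734 and 7099.5 CPM, with the larger step above 20 UMIs. *Hml* held 711 CPM at 0 and 696 CPM at 1 to 4 UMIs, then 323 and 78.04 CPM, and *stg* 227, 197, 59.4 and 6.92 CPM. Of the genes called higher, 448 (18.8%) kept this order of 4 classes in every replicate, and of those called lower 162 (7.25%).

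The *atilla*-high cells differed among themselves. Cells with 20 or more *atilla* UMIs (3881 cells, median 10151 UMIs per cell) were compared with those of 5 to 19 (926 cells, median 3356). Of 6907 genes tested 40.7% were called, 21.9% higher and 18.9% lower in cells with 20 or more. All 10 lamellocyte markers were higher again (median 2.25) and 6 of 8 plasmatocyte markers lower, with 26 of 27 cell division genes lower and 0 higher. *CG1208* was at 6391, 7255 and 7653 CPM in cells with 20 or more, against 834, 335 and 1034 CPM in cells of 5 to 19 (3.38 ± 0.23, adjusted p = 2.36e-07), and *Hml* at 53.3, 39.5 and 141 against 185, 149 and 636 CPM (-1.99 ± 0.11, adjusted p = 6.24e-08). The classes did not overlap for *CG1208*, while *Hml* in replicate 3 of the upper class came close to replicate 2 of the lower one.

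The largest values of this split among genes of at least 50 CPM were those of *CG11395*, which codes for a growth-blocking peptide (3.69 ± 0.20), *Syt1*, a synaptotagmin (3.61 ± 0.20), *Ocho* (3.52 ± 0.22), *CR43432* (3.48 ± 0.30) and *AANATL2* (3.45 ± 0.26). *CG11395* was at 155, 147 and 129 CPM in cells with 20 or more *atilla* UMIs and 9.35, 6.67 and 15.1 CPM in cells of 5 to 19. The lowest were those of *stg* (-3.13 ± 0.16), *Inos* (-2.30 ± 0.11), *eater* (-2.29 ± 0.12), *Pxn* (-2.21 ± 0.12) and *CG42711* (-2.13 ± 0.10). *stg* was at 4.81, 3.84 and 12.1 CPM in cells with 20 or more, against 44.4, 42.97 and 90.9 CPM in cells of 5 to 19. Of 2375 genes higher in *atilla*-high cells that could be tested here, 1401 were higher and 40 lower in the split, and of 1696 lower genes 1045 were lower and 6 higher. The split shares the *atilla*-high cells with the comparison above and is no independent support for it.

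The same contrast was taken at 24 hr, in libraries that the rule did not use. The *atilla*-high class was smaller, with 44, 112 and 354 cells in replicates 1, 2 and 3 (21.6%, 5.59% and 8.72%), against 130, 1775 and 3320 *atilla*-negative cells. Median UMIs per cell were 22889.5, 11921 and 6591 in *atilla*-high and 11731, 6263 and 3715 in *atilla*-negative cells. Of 6249 genes tested 28.0% were called, 15.2% higher and 12.7% lower. Among 6212 genes tested at both times, 872 were called higher at both, which is 40.4% of the 2158 at 48 hr and 92.0% of the 948 at 24 hr. Likewise 605 were lower at both, 37.5% of 1612 at 48 hr and 77.6% of 780 at 24 hr. All 10 lamellocyte markers rose at 24 hr as well (median 4.81). The number of calls at 24 hr rested on the pairing and on each library, since without the replicate block 231 genes were higher and 99 lower, and with 1 replicate left out 596 to 729 were higher and 340 to 573 lower.

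The difference between the times was tested as an interaction, over 6956 genes, of which 19.4% were called (10.2% with a higher and 9.19% with a lower log2 fold change at 48 hr). Without replicate 2 these calls were 243 and 263, against 708 and 639 with all replicates, and in cells of 3000 to 10000 UMIs 423 and 223. Leaving out a replicate in this test removed the library of that number at both times. The *atilla*-high class was also a different mix, as 256 of its 510 cells held 5 to 19 *atilla* UMIs at 24 hr, against 926 of 4807 at 48 hr. The part of this mix, or of larval age, in the differences between the times was not tested. The plasmatocyte markers differed by time, as all 8 had a lower log2 fold change at 48 hr (median difference -2.15), and 7 or 8 of 8 did so with each replicate left out in turn and 8 of 8 in cells of 3000 to 10000 UMIs. At 24 hr *Hml* was at 297, 704 and 452 CPM in *atilla*-high cells, against 479, 1293 and 905 CPM in *atilla*-negative cells (-0.86 ± 0.092, adjusted p = 0.00068). The *atilla*-high values of 24 hr overlapped with the *atilla*-negative ones across replicates, though within each replicate the *atilla*-high class was lower. The difference from 48 hr was -2.06 ± 0.15 (adjusted p = 8.75e-05). *NimC1* gave -0.38 ± 0.12 at 24 hr (adjusted p = 0.0567), with 30.7, 93.1 and 70.9 CPM in *atilla*-high and 38.0, 114 and 100.4 CPM in *atilla*-negative cells, and a difference of -2.06 ± 0.19 (adjusted p = 0.000246).

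Basement membrane, glycolysis and cell division differed by time too. Of 12 basement membrane genes 9 had a lower and 1 a higher log2 fold change at 48 hr, and with each replicate left out in turn 9 or 10 were lower. Of 11 glycolytic genes 8 had a higher log2 fold change at 48 hr and 0 a lower one (median difference 1.20), with 6 to 8 when a replicate was left out. At 24 hr 2 glycolytic genes of 10 were higher and 2 lower (median -0.06). *Gapdh2* was at 763, 666 and 1089 CPM in *atilla*-high and 556, 606 and 679 CPM in *atilla*-negative cells at 24 hr (0.43 ± 0.11), and its difference was 2.10 ± 0.17 (adjusted p = 0.000148). Of 27 cell division genes 22 had a lower log2 fold change at 48 hr, a number that was 11 without replicate 1, 10 without replicate 2 and 22 without replicate 3, and 7 in cells of 3000 to 10000 UMIs. JNK genes gave 6 of 13 higher and 0 lower, with 5 to 7 higher and at most 1 lower when a replicate was left out, and the kindlin *Fit1* 2.77 ± 0.18 (adjusted p = 4.58e-05).

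Of the 10 lamellocyte markers 5 had a higher and 2 a lower log2 fold change at 48 hr (median difference -0.14). These counts depended on the libraries used, with 4 higher and 3 lower without replicate 1, 3 and 1 without replicate 2, and 5 and 0 without replicate 3, where the median difference was 0.54. In cells of 3000 to 10000 UMIs they were 4 and 4. The lower ones were *ItgalphaPS4* (-2.30 ± 0.56, adjusted p = 0.0181) and *PPO3* (-1.20 ± 0.30, adjusted p = 0.0195), which gave -1.35 and -0.59 without replicate 3 (adjusted p = 0.0781 and 0.140, edgeR) and also lost the call without replicate 2. *mys* had a higher one (1.43 ± 0.21, adjusted p = 0.00189), with 845, 1225 and 846 CPM in *atilla*-high and 229, 491 and 184 CPM in *atilla*-negative cells at 24 hr. *CG1208*, which is not in the marker list, had a lower one (-2.31 ± 0.40, adjusted p = 0.00404). It was at 548, 237 and 1790.2 CPM in *atilla*-high cells at 24 hr and at 0.409, 0.521 and 4.42 CPM in *atilla*-negative cells, and the levels of the 2 times were scaled separately. For *alphaTub85E*, at 1214, 1159 and 4433 CPM in *atilla*-high and 9.81, 17.5 and 18.9 CPM in *atilla*-negative cells at 24 hr, the difference did not pass (-1.26 ± 0.40, adjusted p = 0.0527).

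**Figure D5:**
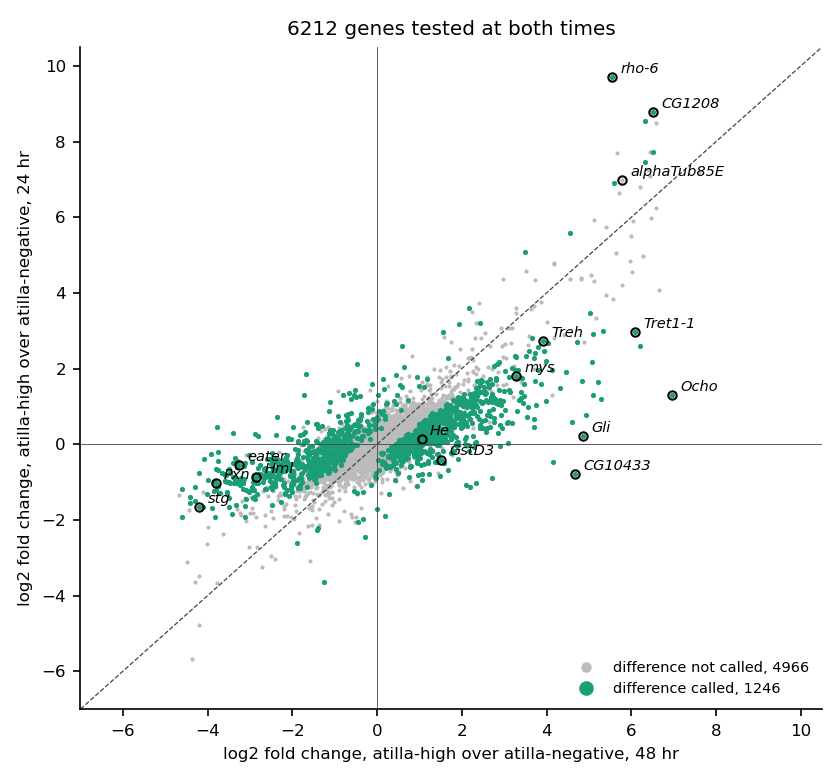
Log2 fold change of *atilla*-high over *atilla*-negative cells at 48 hr (horizontal axis) and at 24 hr (vertical axis), 1 point per gene tested at both times, with green points where the difference between the times was called. The dashed line marks equal values. *Hml*, *Pxn* and *eater* lie above it because they were lower by more at 48 hr, while *CG10433* and *Gli* lie near 0 at 24 hr and at 4.66 and 4.86 at 48 hr.

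A narrower range of depth kept most calls that could be tested. In cells of 3000 to 10000 UMIs, where median depths were 6139.5 to 6279 UMIs in *atilla*-high and 4615 to 5339 UMIs in *atilla*-negative cells, 1795 of the 2236 higher genes that could be tested were called higher again, and 1571 of the 1751 lower genes lower, with 0 called the other way in both. After thinning each cell to 2000 UMIs, which left out shallower cells, the numbers were 1650 of 2192 and 1381 of 1565.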

How the data were processed

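The authors deposited whole UMI counts per gene and cell, not normalized, in 1 table per time point. They were made from Drop-seq reads with Drop-seq tools and STAR against an Ensembl annotation of the *Drosophila* BDGP6 assembly, and the slope of the cumulative reads set the number of cells. The barcode suffixes 1, 2 and 3 were taken as replicates 1, 2 and 3. The 48 hr table held 7168 barcodes, of which 7035 were kept, and that of 24 hr 6328 barcodes, of which 6268 were kept. No doublet caller was run, and doublets are not mentioned in the methods.

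Counts were then summed per replicate and class of *atilla* UMIs and compared with the quasi-likelihood test of edgeR 4.0.16 (R 4.3.3), with TMM normalization, its filter on low counts, the replicate as a block and Benjamini-Hochberg adjustment over all genes tested. An adjusted p under 0.05 was a call, *atilla* was left out, and a class needed 10 cells in a replicate. Each SE was worked back from the log2 fold change and the F value of its test, so it is no separate estimate of precision. It can be too small where a class held few UMIs of a gene. The replicate number pairs the classes because both came from the same larvae, and the deviations of both classes from their means correlated at 0.23, 0.18 and 0.37 over genes in the 3 replicates. The time difference was an interaction term, and leaving out a replicate there removed the library of that number at both times. Depth was compared by an exact sign-flip permutation test (scipy 1.17.1). The scripts were tested on simulated data. DESeq2 1.42.0, other scalings, limits of 3 and 10 *atilla* UMIs, cells of 3000 to 10000 UMIs, thinning, and fits without each replicate, without the block and without sets of cells were alternatives, and leaving out cells with germline or gut genes was added after seeing the data.

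The members and the gene lists were chosen with earlier results of these data known. Named were *atilla*, *Hml*, the 15 genes with the largest and the 15 with the smallest log2 fold change among called genes of 50 CPM or more that moved the same way in every replicate, the genes the study names for each cell type, the 5 extremes in each direction of the time difference and of the split, and list members in order of level, while members with other values of interest were named after their values were seen. Gene positions on the Release 6 assembly were read from an Ensembl annotation (61 of 61 named genes), and exons of 18 overlapped another gene. Intervals cover counting error only.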

Additional observations from a re-analysis of the deposited data

Results flagged for a closer look

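The log2 fold change of *atilla*-high over *atilla*-negative cells differed between 48 hr and 24 hr by the interaction test, with a larger value at 48 hr in 708 genes and a smaller one in 639. Among genes of at least 50 CPM the largest differences were those of *ImpL3* (5.94 ± 0.93, SE), *Syt1* (5.65 ± 0.91), *Ocho* (5.49 ± 1.53), *CG10433* (5.27 ± 0.69) and *Gli*, which encodes gliotactin (4.60 ± 0.45). The lowest were those of *Argk*, arginine kinase (-5.19 ± 1.00), *rho-6*, a rhomboid relative (-4.65 ± 1.28), *miple2* (-4.06 ± 0.66), *Ama*, amalgam (-3.94 ± 1.14), and *CG10877* (-3.82 ± 0.64). For *Argk*, 85.7% of the 434 *atilla*-negative UMIs at 48 hr lay in 10 cells. At 24 hr it was at 0, 0.733 and 28.2 CPM in *atilla*-high and 0.817, 0.608 and 10.6 CPM in *atilla*-negative cells.

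Of these 10 genes *CG10433*, *Gli* and *CG10877* kept their direction and their call in cells of 3000 to 10000 UMIs, with the other size factors and without each replicate. *CG10433* was at 309, 432 and 152 CPM in *atilla*-high and 15.5, 10.2 and 7.89 CPM in *atilla*-negative cells at 48 hr, and at 10.2, 3.66 and 34.2 against 40.05, 32.1 and 21.1 CPM at 24 hr. *Gli* was at 58.5, 56.9 and 44.9 against 1.799, 1.46 and 2.19 CPM at 48 hr and 15.3, 9.53 and 10.1 against 10.2, 15.6 and 6.02 CPM at 24 hr. *CG10877* was at 1.46, 1.98 and 6.94 against 38.1, 52.4 and 61.8 CPM at 48 hr and 3.41, 2.93 and 8.05 against 4.09, 6.43 and 7.18 CPM at 24 hr. The other 7 lost the call in at least 1 of these alternatives, and levels of the 2 times were scaled separately.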

How the results depend on the processing

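At 48 hr the numbers of genes called higher (2379) and lower (2235) stayed within 1.5 times in every alternative except no scaling, which gave 1378 and 3896 by moving the median. DESeq2's Wald test gave 1926 and 1928, the fit without the replicate block 2146 and 2065, and leaving out a replicate 2161 to 2372 higher and 2059 to 2290 lower. The block changed no other count by over 1.5 times at 48 hr (the split gave 1216 and 987 without it, against 1510 and 1302). At 24 hr, against 952 higher and 796 lower, there were 231 and 99 without the replicate block, 445 and 326 in cells of 3000 to 10000 UMIs (where replicate 1 dropped out for too few cells), and 596 to 729 and 340 to 573 without 1 replicate. For the time difference, against 708 larger and 639 smaller, cells of 3000 to 10000 UMIs gave 423 and 223, and leaving out a replicate 243 to 675 and 263 to 500. The causes were not tested.

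Over the named genes, 1029 of 1048 alternative values kept their direction and their side of the threshold, 16 lost the call and 3 turned round. The time difference of *miple2* became 1.23 in cells of 3000 to 10000 UMIs (adjusted p = 0.870, edgeR) and ranged from -4.83 to 2.99 without 1 replicate (adjusted p = 0.672 at 2.99, without replicate 1), and that of *Argk* 0.0313 in cells of 3000 to 10000 UMIs, and the causes were not tested. The fit in cells of 3000 to 10000 UMIs lacked 24 hr replicate 1, which had too few cells. At 24 hr *miple2* was at 30.7, 0 and 0 CPM in *atilla*-high cells of replicates 1, 2 and 3. In *atilla*-negative cells it was at 31.1, 2.26 and 2.17 CPM. The call was lost for *ImpL3* and *Syt1* in cells of 3000 to 10000 UMIs (3.84 and 3.93), for *Ocho* without replicates 1 and 2 (4.11 and 4.61), for *Argk* without replicate 3 (-2.07), and for *rho-6* and *Ama* in cells of 3000 to 10000 UMIs (-2.40 and -4.69) and without each replicate (-5.50 to -2.03 and -4.67 to -3.28). At 48 hr this happened to *PPO2* and *lz* only. For *PPO2* it was in the fit that left out cells by their own *PPO1* and *PPO2* UMIs. DESeq2 also left *lz* at an adjusted p of 0.0507. The 3 libraries, and the few UMIs of many rising genes in the *atilla*-negative class, limit the precision of single fold changes.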

Other observations

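Detoxification and stress genes split within their lists at 48 hr. Of 15 glutathione S-transferases 7 were called higher and 4 lower in *atilla*-high cells. *GstD1* was at 7425, 8218 and 7279 CPM in *atilla*-high cells, against 2880.2, 3119 and 2346 CPM in *atilla*-negative cells (1.47 ± 0.065, SE), and *GstD3* at 478, 545 and 381 against 175, 185 and 132 CPM (1.51 ± 0.077), although the *GstD* genes are near copies of each other and uncertain as single genes. At 24 hr *GstD3* gave -0.41 ± 0.21 (adjusted p = 0.201, edgeR), and the difference between the times was 1.86 ± 0.26 (adjusted p = 0.00153). Of 9 antioxidant genes 3 rose and 3 fell, with thioredoxin reductase *Trxr-1* higher (0.99 ± 0.10) and catalase *Cat* lower (-0.81 ± 0.12). Of 10 heat shock genes 3 rose and 4 fell, which was 1 and 5 without TMM scaling. The small heat shock genes *Hsp26* (-1.06 ± 0.15), *Hsp27* (-2.49 ± 0.11) and *Hsp23* (-1.70 ± 0.15) were lower, and *DnaJ-1*, a co-chaperone, was higher (0.97 ± 0.085).

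The non-coding RNA *CR44316* was at 2617, 2388 and 1705 CPM in *atilla*-high and 496, 359 and 128 CPM in *atilla*-negative cells (2.92 ± 0.21), and it was lowest in replicate 3 of both classes. Of 14 genes that the study names for lamellocytes, 12 were higher and 2, *Hml* and *Pxn*, lower, and as the study chose genes on libraries that include these, this is no independent evidence of direction. Of 5 clotting genes 2 rose (*Gp150* and *GILT1*) and 3 fell (*Hml*, *Idgf3* and *Tig*). With all replicates the 3 lymph gland progenitor markers were all called lower, against 29.6% of all genes. *shg*, which encodes E-cadherin, was lower by the most (-2.64 ± 0.51). This count was not stable, as 1 of 3 was called lower without replicate 1, and 2 of 3 without replicate 2 or replicate 3. In cells of 3000 to 10000 UMIs 1 of the 2 tested was called lower. Their summed levels overlapped between the classes across replicates, though within each replicate the *atilla*-high class was lower. No marker of the posterior signaling center or the salivary gland was abundant enough to test.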
